A study of Homo sapiens with 2 samples.

Results

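The 36 genes described here encode the proteins that carry pyruvate into mitochondria, commit it to the tricarboxylic acid (TCA) cycle and turn the cycle, together with the cytosolic and mitochondrial malic enzymes. They were taken from a fixed list of gene symbols, by a rule that uses no measured value. Earlier results of these data were known when the list was chosen. The genes are 36 of the 19866 protein-coding genes of RefSeq (GRCh38) placed on chromosomes 1 to 22, X and Y. The data are peaks of histone H3 lactylated at lysine 18 (H3K18la) from chromatin immunoprecipitation and sequencing (ChIP-seq) in the cultured human cell line H1299, which derives from a non-small cell lung carcinoma. The series has 1 anti-H3K18la library and 1 input library from the same untreated line, made from chromatin fixed with 1% formaldehyde for 10 min. The peak list of the anti-H3K18la library was analysed, the input library was not analysed here, and the design text of the series names an IgG group where the sample labels name input. With 1 library there is no spread between replicates, no test was possible, and every difference below is a difference within that library.

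The mitochondrial pyruvate carrier brings pyruvate across the inner membrane. The pyruvate dehydrogenase complex then oxidises it to acetyl-CoA, unless lactate dehydrogenase has reduced it to lactate in the cytosol. Kinases switch the complex off by phosphorylation and phosphatases switch it on again, so that these regulators set how much pyruvate is burned and how much leaves as lactate. Lactate is in turn the source of the lactyl group that H3K18la carries, and the mark is known from active promoters and enhancers.

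A peak lay within 1000 bp of an end of 33 of the 36 genes (91.7%), where 59.1% of all protein-coding genes had one. The peaks were frequent but of middling height. Fold enrichment, the deposited ratio of the immunoprecipitated library to the local background of the peak caller, had a median of 5.17 over the 33 genes (quartiles 4.27 and 6.63), against 5.66 over the 11744 protein-coding genes with such a peak (quartiles 4.42 and 7.19). Of the 33 genes, 14 stood above that median of all genes, 5 reached 7-fold or more and 6 stayed under 4-fold. Only PDP1 passed 10-fold, a height that 3.74% of all protein-coding genes reached. The peaks were 455 to 3349 bp wide with a median of 1257 bp, against 1421 bp over all genes with an end peak. The 3 genes without a peak at either end, PDK4, SUCLA2 and SDHD, had none in the body of the gene either, and 66.7% of all protein-coding genes had a peak in one of these places. The depth of the libraries is unknown, so these 3 genes are described as having no listed peak and not as lacking the mark.

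**Figure D1:**
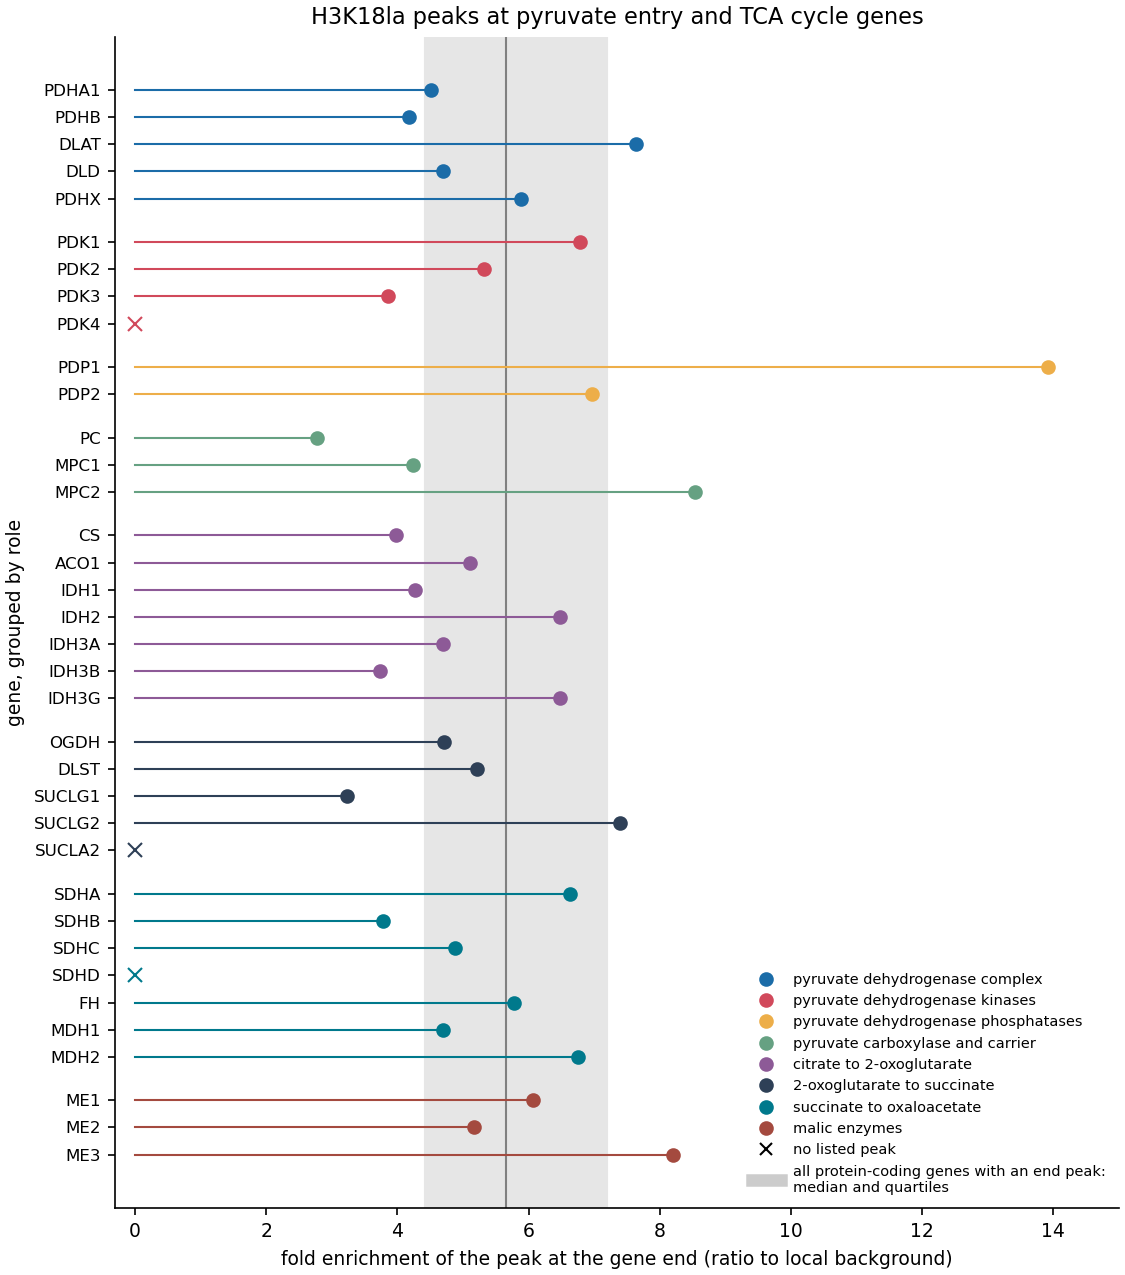
Fold enrichment of the H3K18la peak at an end of each of the 36 genes (ratio to the local background, 1 library), grouped by role, with a cross at 0 for a gene that has no listed peak and a grey band for the quartiles of all protein-coding genes with an end peak. PDP1 stands alone at 13.9-fold, PC is lowest at 2.77-fold, and PDK4, SUCLA2 and SDHD have no peak.

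All 5 subunit genes of the pyruvate dehydrogenase complex had a peak. DLAT (NCBI gene 1737), the dihydrolipoyl acetyltransferase that forms the core of the complex and hands the acetyl group to coenzyme A, had the highest at 7.64-fold (chromosome 11, 112024478 to 112025944), above 79.6% of all genes with an end peak. PDHX, which anchors dihydrolipoyl dehydrogenase to that core, had 5.89-fold in a peak that also lay at APIP, whose end is 459 bp away. Dihydrolipoyl dehydrogenase itself, DLD, had 4.70-fold. The subunits of the decarboxylating enzyme, PDHA1 and PDHB, were lowest, with 4.51-fold and 4.18-fold, although the PDHB peak was the widest of the 5 at 2529 bp. DLAT was thus the only member of the complex above the upper quartile of all genes, and PDHB the only one below the lower quartile.

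The pyruvate dehydrogenase kinases, which phosphorylate and inactivate the complex, differed in height. PDK1 (NCBI gene 5163), the isoform best known as a target of hypoxia-inducible factor, had 6.79-fold (chromosome 2, 172555286 to 172556542). PDK2 had 5.32-fold (chromosome 17, 50094638 to 50096054) and PDK3 3.85-fold in a peak of only 455 bp, the narrowest of all members. PDK4, the isoform induced by fasting and fatty acids, had no listed peak, and the nearest one began 11160 bp from the gene (chromosome 7, 95607676 to 95610146, 4.47-fold). The order of the 4 paralogs is that of 1 library.

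Both phosphatase genes stood above the median of all genes. PDP1 (NCBI gene 54704), the calcium-activated catalytic subunit that reactivates the complex, had the highest peak of any member at 13.9-fold over 2293 bp (chromosome 8, 93915362 to 93917654), with a -log10 q of 83.9. Among all genes with an end peak, 99.3% had a lower fold. The same peak lay at the ends of the noncoding genes MIR378D2HG and MIR378D2. PDP2, its paralog, had 6.97-fold.

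MPC2 (NCBI gene 25874) and MPC1 encode the subunits of the mitochondrial pyruvate carrier, which works as a heterodimer. MPC2 had 8.54-fold over 2263 bp (chromosome 1, 167935337 to 167937599), the second highest fold among the members, whereas MPC1 had 4.24-fold over 1266 bp. PC (NCBI gene 5091), pyruvate carboxylase, which makes oxaloacetate from pyruvate, had the lowest end peak of all members, 2.77-fold over 512 bp (chromosome 11, 66957778 to 66958289). Only 0.741% of genes with an end peak had a lower fold. This peak had a -log10 q of 2.01, which puts it outside the list of 30 members that remained at a -log10 q of 5 or more (52.4% of all protein-coding genes).

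At the entry of the cycle, all 7 genes from citrate synthase to the isocitrate dehydrogenases had a peak, between 3.73-fold and 6.48-fold. Citrate synthase, CS, which joins acetyl-CoA to oxaloacetate, had 3.98-fold. ACO1, the cytosolic aconitase that doubles as an iron-responsive RNA-binding protein, had 5.11-fold. The subunits of the NAD-dependent isocitrate dehydrogenase differed, with 6.48-fold at IDH3G, 4.70-fold at IDH3A and 3.73-fold at IDH3B. The IDH3G peak also lay at SSR4, whose end is 216 bp away. The NADP-dependent isoforms had 6.47-fold at IDH2, the mitochondrial one, and 4.27-fold at IDH1, the cytosolic one.

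Between 2-oxoglutarate and succinate, 4 of 5 genes had a peak. OGDH and DLST, the dehydrogenase and the succinyltransferase of the 2-oxoglutarate dehydrogenase complex, had 4.71-fold and 5.21-fold. Succinyl-CoA ligase pairs a shared alpha subunit, SUCLG1, with a beta subunit that sets the nucleotide formed. SUCLG2 (NCBI gene 8801), the beta subunit of the GTP-forming enzyme, had 7.40-fold (chromosome 3, 67653822 to 67655135). SUCLA2 (NCBI gene 8803), the beta subunit of the ATP-forming enzyme, had no listed peak. The shared subunit SUCLG1 had 3.24-fold, in a peak also at DNAH6.

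Of the 7 genes from succinate dehydrogenase to malate dehydrogenase, 6 had a peak. Succinate dehydrogenase is both a cycle enzyme and complex II of the respiratory chain. Its flavoprotein gene SDHA had 6.63-fold in a peak also at CCDC127, the membrane anchor gene SDHC 4.88-fold and the iron-sulfur subunit gene SDHB 3.78-fold. SDHD (NCBI gene 6392), the other membrane anchor, had no listed peak. It lies 22469 bp beyond DLAT on chromosome 11, so that a gene with one of the higher peaks and a gene with none lie close together. The nearest peak to SDHD lay 12068 bp from it (112074450 to 112074805, 3.72-fold, 356 bp wide, at NKAPD1 and PIH1D2). TIMM8B, whose end is 117 bp from that of SDHD, had no end peak either. FH, which hydrates fumarate to malate, had 5.77-fold. The malate dehydrogenase genes had 6.75-fold at MDH2, the mitochondrial form, in a peak also at STYXL1, and 4.70-fold at MDH1, the cytosolic form.

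The malic enzymes, which decarboxylate malate back to pyruvate, all had a peak. ME3 (NCBI gene 10873), a mitochondrial NADP-dependent form, had 8.20-fold over 3349 bp (chromosome 11, 86669475 to 86672823), the widest peak at any member. The cytosolic form ME1 had 6.07-fold and the mitochondrial NAD-dependent form ME2 5.17-fold. By the rule that the midpoint of the peak must lie in the window, ME3 no longer counted, because its peak reached 3141 bp into the gene.

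The peaks sat at transcription starts. A RefSeq table of promoters (GRCh38.p14) listed at least 1 start for 33 members and none for PDP1, OGDH and SDHC. Of the 30 members with both a listed start and an end peak, all 30 had the peak at the end of the gene that holds the start, against 94.3% of all such genes. The peak covered a listed start in 27 of the 30 (77.5% of all such genes), which is 27 of the 33 members with a listed start (47.3% of all genes with one). The exceptions were PDK3, whose peak began 16 bp downstream of the start, PC, whose peak began 94 bp downstream, and IDH2. The IDH2 peak (chromosome 15, 90101869 to 90102476) ended 1248 bp upstream of the only listed start, at the end of the gene entry itself and at the divergent noncoding gene IDH2-DT. Measured from the most upstream listed start, the peaks reached a median of 577.5 bp upstream and 595 bp downstream, against 611 and 767 bp over all genes. PDHB reached furthest upstream (2101 bp) and ME3 furthest downstream (3141 bp). The peaks of DLD and MDH1 began 51 and 41 bp downstream of the first listed start, but each covered a second listed start.

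**Figure D2:**
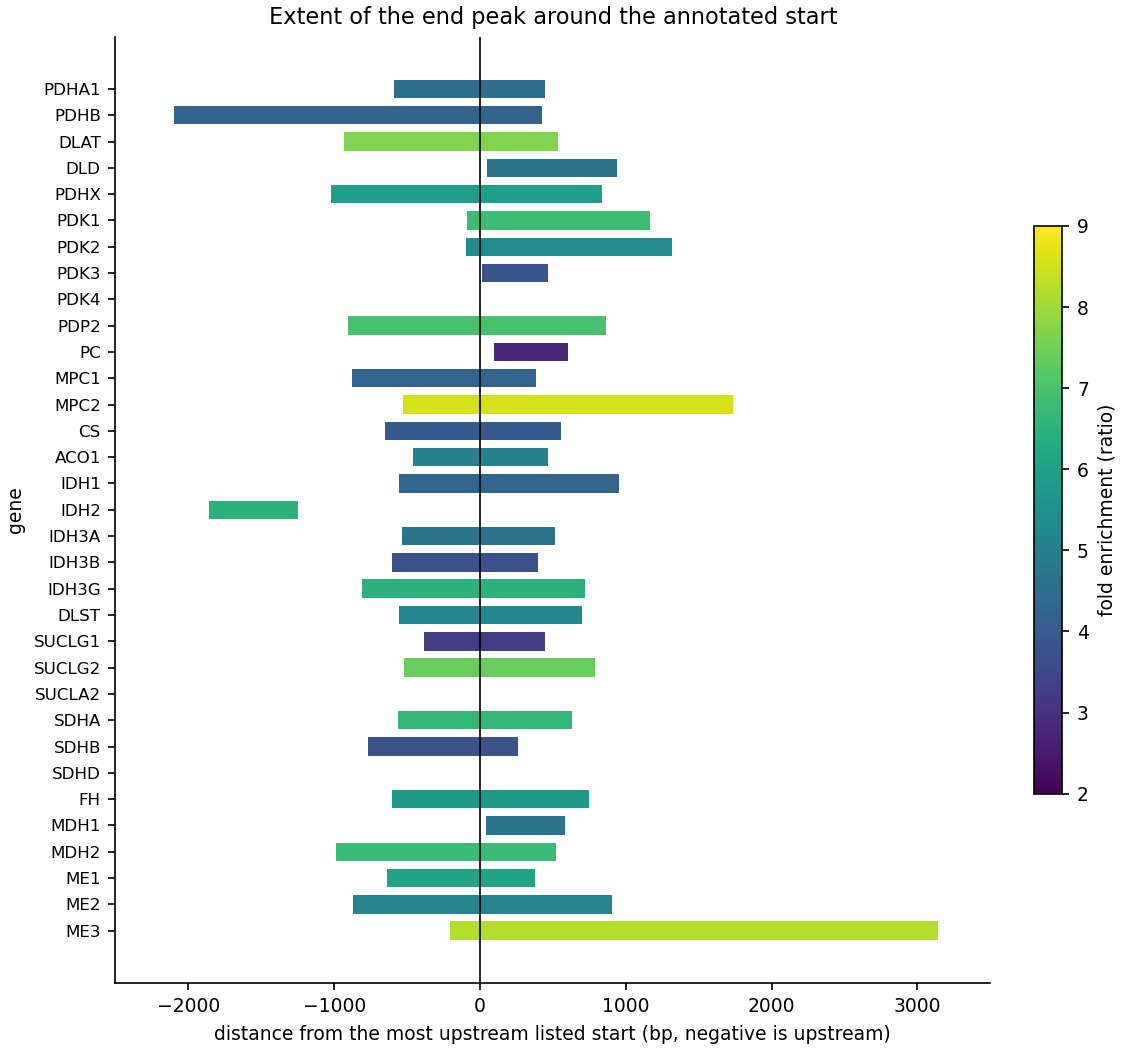
Extent of the end peak relative to the most upstream listed start for the 33 members with a listed start (bp, negative upstream), coloured by fold enrichment (ratio). Bars straddle the start in most rows, the IDH2 bar lies wholly upstream between -1855 and -1248 bp, and the rows of PDK4, SUCLA2 and SDHD are empty.

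The end peak was shared with the end of another protein-coding gene in 5 of the 33 genes (15.2%), namely PDHX, IDH3G, SUCLG1, SDHA and MDH2, against 32.9% of all genes with an end peak. At these 5 genes the mark cannot be assigned to either partner of the pair from the peak list. Only protein-coding partners were counted. The end peaks of PDHB, PDK1, PDK2, PDP1, MPC1, IDH1, IDH2, IDH3A, IDH3B and SUCLG2 also lay at ends of noncoding genes. No share over all genes is given for that. Sharing was recorded for 7 of the 17 glycolysis genes and 19 of the 32 complex I subunit genes that had a peak. Whether these shares differ was not tested.

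Over all genes, end peaks were more frequent at promoters with more CpG. CpG dinucleotides were counted in the 300 bases from 250 before to 50 after the most upstream listed start. The 33 members with a listed start had a median of 25 CpG, ranging from 6 to 41, against 22 over 15842 protein-coding promoters and 27 over those of genes with an end peak. The promoters were ranked by CpG count and cut into quintiles. Over all genes, an end peak was found at 14.8% of quintile 1, the poorest, 48.4% of quintile 2, 77% of quintile 3, 81.2% of quintile 4 and 84% of quintile 5. No member was placed in quintile 1. PDK1 and IDH2 have 6 CpG each, the count at which quintiles 1 and 2 meet. Only the order among tied promoters put these 2 genes in quintile 2. In quintiles 3 to 5 together, 24 of 27 members had an end peak, against 80.7% of all genes there, and in quintile 2 it was 6 of 6 members (ME3, FH, IDH2, PDK1, PDK2 and SUCLG1), against 48.4%. The count is that of the most upstream start alone. The IDH2 peak did not reach that start, and the peaks of PDK1, PDK2 and ME3 also covered further listed starts with up to 38, 35 and 28 CpG.

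**Figure D3:**
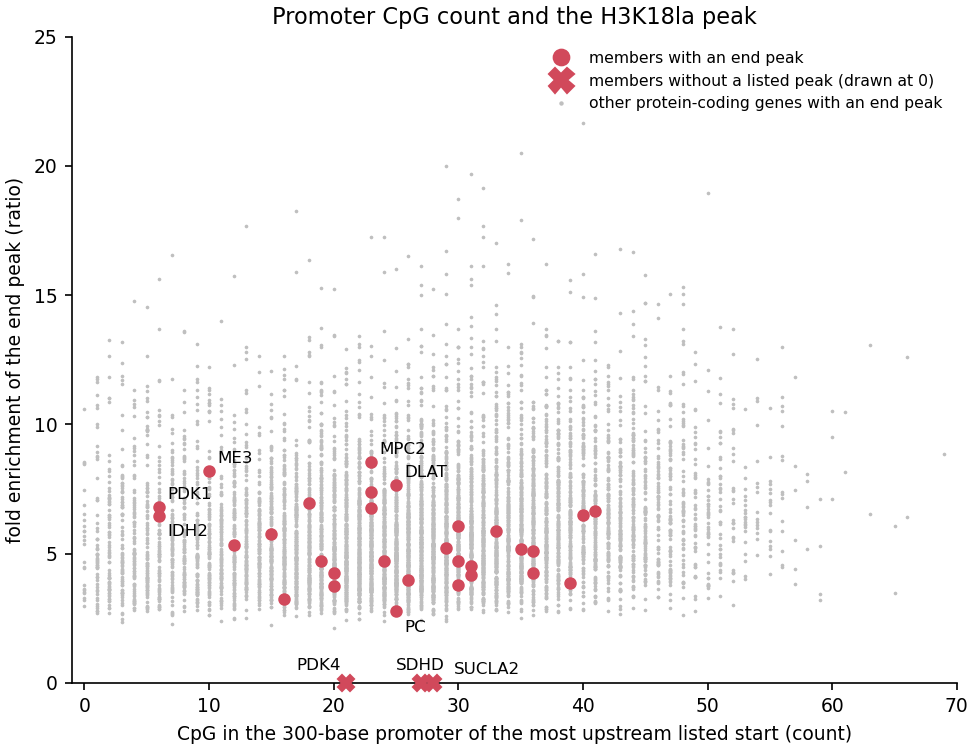
CpG count in the 300-base promoter of the most upstream listed start and fold enrichment of the end peak (ratio), for the 33 members with a listed start in red and the other protein-coding genes with an end peak in grey. PDK4, SUCLA2 and SDHD, drawn at 0, have 21, 28 and 27 CpG, within the range of the members that have a peak. The points of PDK1 and IDH2 at 6 CpG use a start that the IDH2 peak does not cover and that is only one of those under the PDK1 peak.

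The 3 genes without a peak were not CpG-poor. The 250 bases before their starts are shown from RefSeq (GRCh38.p14), 5′ to 3′ on the strand of the gene, in lower case with every CpG in capitals, so that they can be set against the promoters with a peak that follow. They lie at chr7:95596517-95596766 (minus strand), chr13:48001274-48001523 (minus strand) and chr11:112086623-112086872 (plus strand), and hold 19, 25 and 24 CpG.
PDK4: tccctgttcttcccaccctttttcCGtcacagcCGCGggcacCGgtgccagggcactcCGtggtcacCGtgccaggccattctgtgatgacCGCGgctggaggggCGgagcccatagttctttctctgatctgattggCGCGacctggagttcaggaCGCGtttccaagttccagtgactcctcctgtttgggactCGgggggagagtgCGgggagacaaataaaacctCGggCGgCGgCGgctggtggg
SUCLA2: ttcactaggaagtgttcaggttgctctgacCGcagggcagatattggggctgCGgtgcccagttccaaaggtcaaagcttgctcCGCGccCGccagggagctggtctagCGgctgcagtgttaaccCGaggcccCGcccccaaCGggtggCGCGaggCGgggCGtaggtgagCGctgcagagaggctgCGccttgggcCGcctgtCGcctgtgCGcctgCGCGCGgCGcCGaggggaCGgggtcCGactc
SDHD: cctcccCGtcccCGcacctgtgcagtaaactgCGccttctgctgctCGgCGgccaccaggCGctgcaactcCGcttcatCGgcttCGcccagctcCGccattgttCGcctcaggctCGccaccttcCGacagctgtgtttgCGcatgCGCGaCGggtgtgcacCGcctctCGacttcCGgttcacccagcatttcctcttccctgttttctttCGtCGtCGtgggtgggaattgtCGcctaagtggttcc
The SDHD stretch holds the core of the motif of nuclear respiratory factor NRF1 (TGCGCA), which activates many mitochondrial genes, beginning 111 bases before the start. The SUCLA2 stretch holds the motif of the estrogen-related receptors (AAGGTCA, here on either strand), which also drive oxidative genes, 183 bases before the start.

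For comparison, the same stretch is shown for DLAT at chr11:112025158-112025407 (plus strand) and MPC2 at chr1:167937073-167937322 (minus strand), members with high peaks. They hold 21 and 17 CpG, beside 19, 25 and 24 in PDK4, SUCLA2 and SDHD.
DLAT: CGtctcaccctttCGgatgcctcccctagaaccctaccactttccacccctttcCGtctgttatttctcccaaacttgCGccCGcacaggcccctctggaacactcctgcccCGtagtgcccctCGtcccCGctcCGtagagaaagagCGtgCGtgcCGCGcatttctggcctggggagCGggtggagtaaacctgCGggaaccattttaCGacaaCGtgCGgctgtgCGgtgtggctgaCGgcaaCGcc
MPC2: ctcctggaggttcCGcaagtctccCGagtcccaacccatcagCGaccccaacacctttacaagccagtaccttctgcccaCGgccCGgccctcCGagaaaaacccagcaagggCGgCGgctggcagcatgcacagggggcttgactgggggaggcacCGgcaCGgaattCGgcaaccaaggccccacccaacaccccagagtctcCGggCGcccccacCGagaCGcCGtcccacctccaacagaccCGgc
The CpG counts of these 5 stretches therefore overlap between genes with and without a listed peak.

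PDK1 has 2 listed starts that lie 717 bp apart under the same 6.79-fold peak, and their sequences are of different kinds. The upstream one at chr2:172555123-172555372 (plus strand) holds 5 CpG in 250 bases and is rich in A and T. The downstream one at chr2:172555840-172556089 (plus strand) holds 34 CpG.
PDK1, upstream start: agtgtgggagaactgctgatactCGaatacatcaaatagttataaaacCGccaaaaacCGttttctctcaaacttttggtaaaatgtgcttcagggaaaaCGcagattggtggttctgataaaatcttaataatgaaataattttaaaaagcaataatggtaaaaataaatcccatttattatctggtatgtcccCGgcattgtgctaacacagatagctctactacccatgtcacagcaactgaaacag
PDK1, downstream start: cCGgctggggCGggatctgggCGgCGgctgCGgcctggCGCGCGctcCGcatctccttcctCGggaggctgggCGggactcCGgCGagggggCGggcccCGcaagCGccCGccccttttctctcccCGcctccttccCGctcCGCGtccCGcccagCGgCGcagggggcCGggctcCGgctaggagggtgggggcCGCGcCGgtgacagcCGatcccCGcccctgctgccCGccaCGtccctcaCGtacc
The downstream stretch holds the core letters bound by hypoxia-inducible factors (ACGTG, either strand) beginning 17 and 8 bases before the start, whereas the upstream stretch holds none. The peak reached 87 bp upstream of the first start and 1169 bp downstream of it, so that it covered both starts. The low CpG count of PDK1 in the count above is that of the upstream start alone. PDK2 was similar, with 12 CpG in the 300-base promoter of its first start, 35 at the second and 20 at the third, all under 1 peak. The core ACGTG was not particular to PDK1. It lies 35 bases before the start in the DLAT stretch above. It was also found in the 300-base promoters of the second listed starts of PDHX, PDK2, IDH1 and ME3.

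Motif letters in the 300-base promoters of the most upstream starts, searched on both strands, are given as a description. The NRF1 core TGCGCA was found in 6 of 33 member promoters (18.2%) and 10.8% of all protein-coding promoters. It was found in IDH3A, IDH3B, IDH3G, SDHA, SDHB and SDHD, that is, in all 3 subunits of the NAD-dependent isocitrate dehydrogenase and in the 3 succinate dehydrogenase genes whose promoters were searched, SDHC having no listed start. Of these, SDHD has no listed peak. Among the further listed starts of members, the core was also found at the second of DLD and the third of MPC2, both under the end peak. The estrogen-related receptor motif AAGGTCA was found in SUCLA2, SDHB and SDHD, 9.09% of the members and 3.21% of all promoters. The CCAAT box (CCAAT) was found in 19 members (57.6%, all promoters 36.4%) and the YY1 core GCCAT in 16 (48.5%, all promoters 37.5%). The SP1 box GGGCGG was found in 20 (60.6%, all promoters 58.3%), the hypoxia core ACGTG in 7 (21.2%, all promoters 23.7%) and the E-box CACGTG, which contains that core, in 3 (9.09%, all promoters 8.82%). The letters TATAAA were found in the promoters of PDK1 and ME3 alone among the members (6.06%, all promoters 9.75%). At PDK1 they begin 210 bases before the start. Over promoters of genes with an end peak alone, the shares were 14.3% for the NRF1 core and 2.44% for the estrogen-related receptor motif. There the CCAAT box had 36.7%, the YY1 core 38.2% and the SP1 box 72.2%. The hypoxia core had 27.3%, the E-box 10.5% and TATAAA 5.3%. A match describes letters and not a bound factor.

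Inside the genes, peaks were concentrated in a few members. A body peak, which overlaps the gene but neither end window, was found in 8 of 36 members (22.2%), where 24.8% of all protein-coding genes had one. The 8 genes held 35 body peaks with a median of 3.77-fold, against 3.88-fold over the 9765 peaks inside genes away from any protein-coding gene end. The 35 include a PC peak at an end of LRFN4, a kind of peak that the 9765 leave out. Of the 35, 11 reached 4.36-fold, the median of the whole list. ME3, PC and OGDH held 27 of the 35.

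ME3 held 15 body peaks of 2.73-fold to 6.29-fold, spread from 39064 to 213852 bp downstream of its first start and 17788 bp in summed width. Among the 626 protein-coding genes of 200000 to 300000 bp, the median was 1 body peak, and 0.639% had 15 or more. The other members in that range of length, SUCLG2 and ME1, had none. ME3 therefore had both the widest end peak and the most body peaks of the members.

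PC held 8 body peaks of 3.12-fold to 7.70-fold, each higher than its end peak of 2.77-fold. Among the 1956 genes of 100000 to 200000 bp, 1.64% had 8 or more. The highest of these peaks (66855616 to 66857423) lay at an end of LRFN4, a gene located within PC. Next was a peak of 5.83-fold 70747 to 72348 bp downstream of the first start. RefSeq lists 2 further PC starts 50430 and 52349 bp downstream of the first, with 4 and 8 CpG in their promoters. No peak covered either, and the nearest, of 3.77-fold, began 52966 bp downstream of the first start.

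OGDH held 4 body peaks in the 35499 bp next to the end that carries its end peak, and 11.7% of genes of 100000 to 200000 bp had 4 or more. The strongest was 8.27-fold over 5911 bp (chromosome 7, 44636216 to 44642126) and exceeded the end peak of 4.71-fold in both fold and width. A second body peak had 5.59-fold over 3204 bp, and the remaining pair had 2.87-fold and 2.90-fold. PDHX likewise had a body peak of 6.70-fold over 4725 bp that exceeded its end peak (5.89-fold over 1860 bp), 58814 to 63538 bp downstream of its first listed start. PDK1 had 3 weaker body peaks of 3.17-fold to 4.08-fold between 137343 and 143651 bp downstream of its first start, PDP1 had 2 of under 3-fold, and DLAT and ACO1 had 1 each, of 3.45-fold and 4.15-fold.

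**Figure D4:**
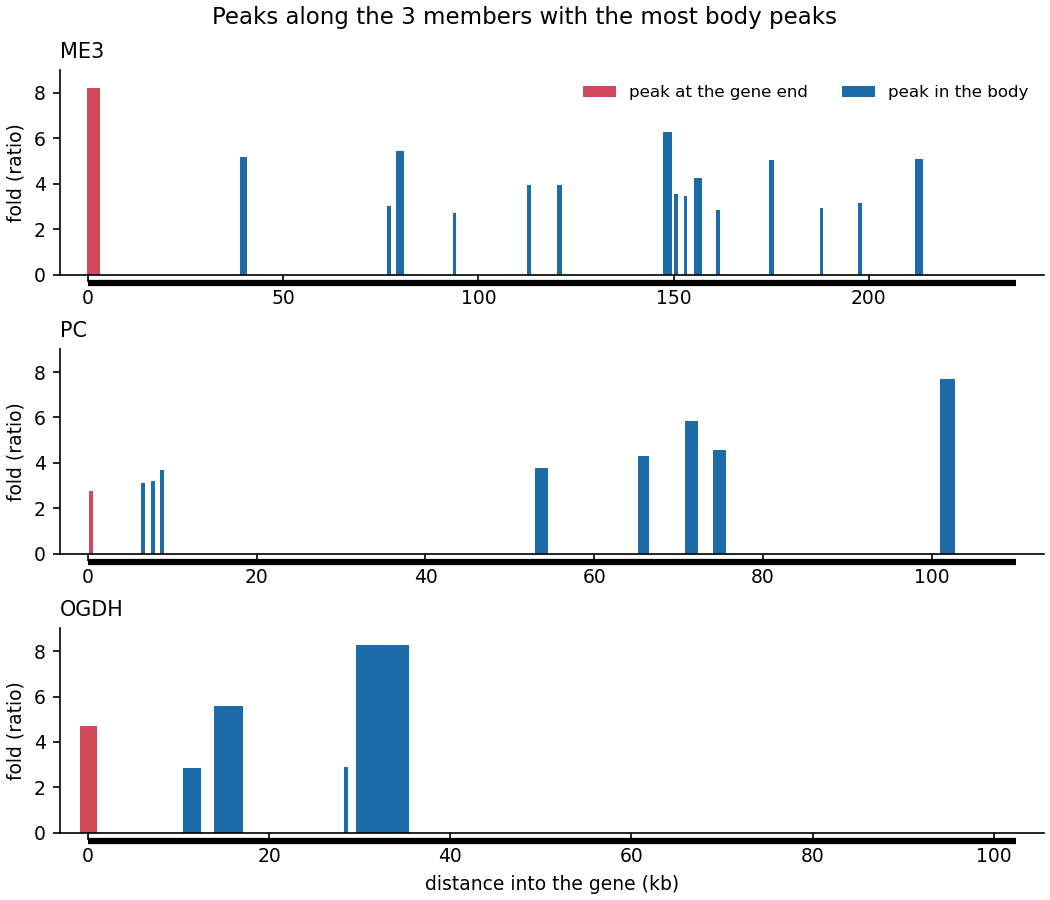
Peaks along ME3, PC and OGDH, with fold enrichment (ratio) as bar height against distance into the gene in kb from its first listed start or, for OGDH, from the end that carries the end peak. The black line marks the gene, and bars narrower than 0.4% of the gene are drawn at that width. In PC every body peak (blue) is higher than the end peak (red, 2.77-fold), and in OGDH the broad peak of 8.27-fold is the highest.

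Genes that serve the same pathway but are not among the 36 had a like pattern. A peak lay at an end of 28 of 31 such genes (90.3%), with a median of 5.16-fold. Over all protein-coding genes the share was 59.1%, and the counts of the single lists below stand beside that same share. All 8 genes of lipoylation, the cofactor attachment that DLAT and DLST need, of complex assembly and of phosphatase regulation had one, from 8.73-fold at the succinate dehydrogenase assembly factor gene SDHAF2, in a peak also at CPSF7, and 8.08-fold at the lipoyl transferase gene LIPT2 to 2.75-fold at SDHAF3. All 6 carriers of cycle intermediates, aspartate or phosphate had one, the highest at the aspartate-glutamate carrier gene SLC25A13 with 10.2-fold. All 7 genes of related 2-oxo acid dehydrogenases and their regulators had one, with BCKDK, the kinase of the branched-chain complex, at 9.76-fold. Of 10 genes that supply the cycle from glutamine and aspartate or draw from it, 7 had one. Those without were GLS2, the glutaminase of liver, GLUD2, a retrogene expressed in brain and testis, and PCK1, the cytosolic carboxykinase of liver and kidney. GLUD1 and PCK2, the widely expressed counterparts of GLUD2 and PCK1, had 8.30-fold, in a peak also at SHLD2, and 4.62-fold.

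Set beside other lists of energy metabolism, the 36 genes had a share of peaks like theirs and heights like those of complex I. Of 37 complex I subunit genes 32 had an end peak (86.5%), with a median of 4.88-fold and 1321.5 bp. Of 19 glycolysis genes 17 had one (89.5%), with a median of 6.53-fold and 2180 bp. At or above the median fold of the whole list, 4.36, the 36 members had 24 genes (45% of all protein-coding genes), glycolysis 16 of 19 and complex I 22 of 37. These differences were not tested.

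**Figure D5:**
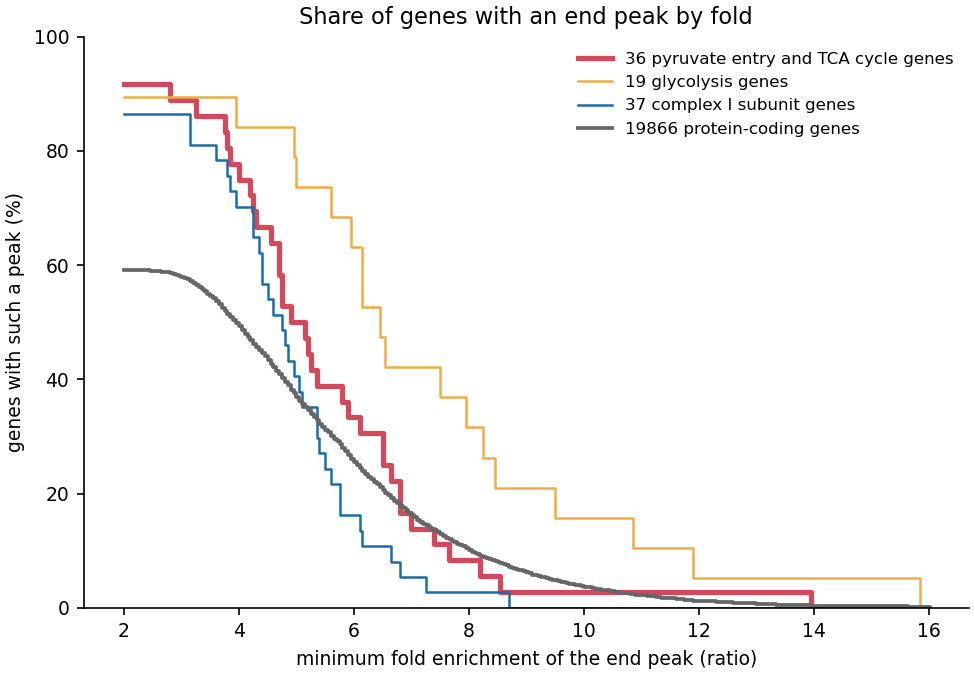
Share of genes (%) with an end peak of at least the fold enrichment on the x axis (ratio), for the 36 members, 19 glycolysis genes, 37 complex I subunit genes and all 19866 protein-coding genes. The curve of the members begins at 91.7%, above the 59.1% of all genes, and crosses the curve of all genes near 7-fold, while the glycolysis curve stays above both over most of the range.

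A control background behind each end peak was estimated from its fold and p under the Poisson model of the caller, in the caller's scaled read units. The estimate was picked from a grid of trial values. It treats fold and p as values of a single position, whereas the deposited fold is averaged over the peak, so it is not a measured control count. The estimate had a median of 4.24 over the 33 members and 4.64 over all genes with an end peak (quartiles 3.65 and 5.94). It was highest at PDK2 (10.4, above 97.4% of genes) and DLST (7.84, above 91.5%). PDP1, SUCLG1, MDH2 and ME2 followed at the same grid value of 6.74 (above 83.8%). The part of the background in the values of these genes was not tested. As a description of the line, 5 of 5 genes listed for mesenchymal-type cells (VIM, ZEB1, AXL, CDH2 and ITGB1) had end peaks. ITGB1 is not particular to such cells. The 5 end peaks were of 7.24-fold to 8.94-fold, where 59.1% of all protein-coding genes had an end peak. Of 12 marker genes of blood, liver, heart, endothelium, alveolar and other epithelium, NKX2-1 alone had one, of 3.90-fold, while PECAM1 had 4 body peaks and PTPRC, CDH5 and CDH1 had 1 each.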

How the data were processed

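Per the submitters' processing notes, bcl2fastq 2.17, cutadapt 1.18, Trimmomatic 0.38, Bowtie2 2.3.4.1, Picard, MACS2 (2.1.2 and 2.1.0) and ChIPseeker were used, with build hg38. Per the labels' protocols, PCR ran for 15 cycles and the reads were paired, of 150 nt each. The deposited list has the 9 columns of a MACS2 broad peak file. Its deposited fold is a ratio to the local background, averaged over the peak. Its deposited significance is -log10 p and -log10 q, and its deposited score was not used in any result. The largest q was 0.0472. The caller's settings, its control library and the depth are not given in the sources used here, and how reads of near-identical copies were placed was not examined.

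Of 59792 RefSeq gene entries, 831 lay off the primary chromosomes and were dropped, and 19866 protein-coding genes remained. A peak that overlapped the 1000 bp either side of a gene end by 1 bp or more was an end peak, and the one of highest fold was taken. Starts and strands came from the RefSeq promoter table, for 15842 protein-coding genes. Python 3.11.15, numpy 2.4.6, pandas 2.3.3 and scipy 1.17.1 were used, and the code was tested on simulated data. All members were to be named, with the related genes of highest fold and those without a peak. The members, lists and alternatives were chosen with earlier results of these data known. No replicates existed, so no test was made. The replicate labels name 1 library per group. Some named items are not reported here.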

Additional observations from a re-analysis of the deposited data

How the results depend on the processing

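Each of the 7 counts and medians was recomputed under 7 other settings, and 44 of 49 values stayed within 1.5 times the reported one. With peaks of a -log10 q of at least 5, 4 members had a body peak (16.5% of all protein-coding genes) and 5 had no peak (41.3%). With only peaks at or above the median fold, 4 members had a body peak (13.2% of all protein-coding genes) and 11 had no peak (48.8%). When a peak had to cover 50% of the window, 14 members had a body peak (37.7% of all protein-coding genes), since end peaks then counted as body peaks. The number of members with an end peak ranged from 24 (peaks at or above the median fold, where 45% of all genes had one) to 33. PDK4, SUCLA2 and SDHD had no peak under any of these settings, the 3000 bp window included, but none of the settings could have given them one. Their nearest listed peaks lie 11160, 36350 and 12068 bp away, beyond the widest window, and the other settings add no peaks. PC and PDK3 lost their end peak at a -log10 q of at least 5, as did IDH3B. The unknown depth limits what the absence of a peak can show. No paired analysis was possible because each group holds 1 library.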

Other observations

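RefSeq lists 36 pseudogenes that carry the symbol of 14 of the members, and 4 of them had an end peak. Of the 4 SDHA pseudogenes, SDHAP1, SDHAP4 and SDHAP3 had 8.12-fold, 7.53-fold and 4.99-fold, beside 6.63-fold at SDHA itself. SUCLA2P3 had a peak of 1100 bp at just under 3-fold, whereas SUCLA2 had no listed peak. None of the 7 SDHD pseudogenes and none of the 5 of SDHC had one. How reads were placed between these copies and their parent genes was not tested.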
